A study of Mus musculus with 48 samples.

Results

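The 47 genes described here encode proteins of G2 and mitosis. They were taken by symbol for their known functions, with earlier results of these data known. All 47 were found among the 54752 genes of each of the 3 count tables, and all 47 passed the filter on low counts in each table. By role they fall into 9 groups: the CDK1 engine (Cdk1, Ccnb1, Ccnb2, Ccna2, Cdc25b, Cdc25c, Foxm1), the mitotic kinases (Plk1, Aurka, Aurkb, Nek2), the spindle checkpoint (Bub1, Bub1b, Bub3, Mad2l1, Ttk), the anaphase-promoting complex and separase (Cdc20, Ube2c, Fbxo5, Pttg1, Espl1), the centromere and kinetochore (Cenpa, Cenpe, Cenpf), 8 kinesins, 6 spindle factors, 4 genes of cytokinesis and the spindle midzone, and 5 genes of chromosome structure. The intervals in which their reads were counted, on the mm10 build, run from 4452 bases (Cdc20) to 101478 bases (Kif4) with a median of 23001, and they include introns.

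These genes are switched on late in the cell cycle. Cyclin A and then cyclin B activate the kinase CDK1, CDC25 phosphatases remove its inhibitory phosphates, and polo-like and Aurora kinases drive centrosome maturation and spindle assembly. The anaphase-promoting complex with CDC20 then destroys securin and cyclin B, which frees separase and ends mitosis. In G1 and early S phase the promoters of many such genes are repressed by the DREAM complex, which binds a sequence element called the cell cycle genes homology region (CHR), and in G2 they are activated by MuvB with B-MYB and FOXM1, often with NF-Y at nearby CCAAT boxes. Mouse embryonic stem cells have a short G1 phase and spend much of their cycle in S phase.

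Newly made RNA was labelled with 4-thiouridine (4SU), a uridine analogue taken up into nascent transcripts, in 48 libraries from mouse embryonic stem cells grown in L2i medium. Cycling FOXD3-iKO cells, a line with inducible loss of the forkhead factor FOXD3, received 4-hydroxytamoxifen (4HT) or its solvent ethanol for 8, 14, 24 or 32 h. Cycling OCT4-tetOff cells, in which doxycycline shuts off the POU factor OCT4, received doxycycline or water for 16 or 24 h. FOXD3-iKO cells held by a repeated thymidine block, which stops cells at the entry into S phase, were released 24 h after 4HT or ethanol and collected at 0, 1, 2, 3, 4 and 5 h of release. Each of the 24 groups has 2 libraries, and the pulse lasted 30 min in cycling and 15 min in synchronized cells. Nothing in the labels ties the 2 libraries of a group to different cultures, and the p-values therefore reflect only how far these libraries spread, which may be technical variation. Every library is a bulk sample, in which fewer cells in G2 or mitosis and less RNA made per cell cannot be told apart.

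Total counts ran from 21827951 to 30406124 per library in cycling FOXD3-iKO cells, from 21113158 to 26112435 in OCT4-tetOff cells and from 7953841 to 17936504 in synchronized cells. The targeted genes moved with the labels. Foxd3 had 5.05 to 9.99 CPM (counts scaled to the size of the library) in the 8 cycling ethanol libraries and 1.43 to 4.84 in the 8 with 4HT, and Pou5f1, which encodes OCT4, had 176 to 226 CPM in the 4 water libraries and 46.2 to 79.6 in the 4 with doxycycline. Fibroblast feeder markers summed to between 10.1 and 39.4 CPM over 12 genes in all libraries, against 1442 to 4644 CPM for 16 stem cell markers. The pair of genes Gm26917 and Gm42418, which collect ribosomal RNA reads, took 12.5% to 37.1% of counts in cycling FOXD3-iKO cells, 18.1% to 43.1% in OCT4-tetOff cells and 3.41% to 25.4% in synchronized cells. This share differed between libraries of one group.

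Promoter sequences show what many of these genes have in common. RefSeq promoter windows of 300 bases (build GRCm38.p6, 250 bases before the start site and 50 after it) were found for 40 of the 47 members, and Aurkb, Tpx2, Cdc25c, Dlgap5, Ccna2, Foxm1 and Kif20a had no entry in the table. The CHR letters TTTGAA, on either strand, were in the windows of 29 of the 40 members (72.5%) and of 5466 of 27025 genes with a window (20.2%). CCAAT, the core of the NF-Y site, was found on either strand in 31 members (77.5%) and in 41.1% of all genes, and both TTTGAA and CCAAT were in 26 members (65%) and in 7.97% of all genes. These are matches of letters, given as a description. The CHR variants TTCGAA and TTTAAA were present in 4 and 10 members (10% and 25%), against 1.8% and 14.9% of all genes, and some genes hold more than one form. The forkhead letters TGTTTAC or TGTTTGC were in 3 members (7.5%) and in 9.47% of all genes, and the E2F letters TTTCCCGC, or the variant TTTGGCGC, or the further variant TTTCGCGC, in 4 members (10%) and in 2.12% of all genes.

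The stretches below, from 120 bases before the start site to 10 bases after it, are shown because their genes carry the results on release, with CHR forms and CCAAT boxes of either strand in capitals. The first 8 belong to genes that rose within the first hour, Ckap2 rose late, Nusap1 has neither element in its window, and Kif18a, also without either, differed most between libraries. Their positions are Plk1 (plus strand, chr7:122159315-122159444), Cdc20 (minus strand, chr4:118437334-118437463), Cenpa (plus strand, chr5:30666766-30666895), Ccnb1 (minus strand, chr13:100786477-100786606), Cdk1 (minus strand, chr10:69352903-69353032), Ube2c (plus strand, chr2:164769809-164769938), Top2a (minus strand, chr11:99024180-99024309), Ccnb2 (minus strand, chr9:70421545-70421674), Ckap2 (minus strand, chr8:22185810-22185939), Nusap1 (plus strand, chr2:119618178-119618307), Kif18a (plus strand, chr2:109280618-109280747).
Plk1: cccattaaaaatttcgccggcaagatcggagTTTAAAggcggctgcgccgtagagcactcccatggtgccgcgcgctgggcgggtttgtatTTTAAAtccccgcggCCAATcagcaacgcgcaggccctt
Cdc20: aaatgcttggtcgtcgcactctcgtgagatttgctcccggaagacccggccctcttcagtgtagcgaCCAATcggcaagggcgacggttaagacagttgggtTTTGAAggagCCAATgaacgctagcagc
Cenpa: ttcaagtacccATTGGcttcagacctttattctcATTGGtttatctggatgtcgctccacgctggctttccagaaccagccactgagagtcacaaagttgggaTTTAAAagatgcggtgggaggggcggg
Ccnb1: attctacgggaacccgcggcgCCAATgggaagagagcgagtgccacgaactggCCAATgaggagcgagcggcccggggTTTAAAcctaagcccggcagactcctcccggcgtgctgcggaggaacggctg
Cdk1: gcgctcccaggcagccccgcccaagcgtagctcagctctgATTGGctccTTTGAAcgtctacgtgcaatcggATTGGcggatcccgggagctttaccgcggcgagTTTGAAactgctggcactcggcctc
Ube2c: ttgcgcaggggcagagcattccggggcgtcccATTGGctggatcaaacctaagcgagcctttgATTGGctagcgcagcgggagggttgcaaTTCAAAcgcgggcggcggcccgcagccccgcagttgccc
Top2a: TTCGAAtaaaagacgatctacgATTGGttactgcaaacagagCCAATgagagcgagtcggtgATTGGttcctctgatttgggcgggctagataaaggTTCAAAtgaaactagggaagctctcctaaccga
Ccnb2: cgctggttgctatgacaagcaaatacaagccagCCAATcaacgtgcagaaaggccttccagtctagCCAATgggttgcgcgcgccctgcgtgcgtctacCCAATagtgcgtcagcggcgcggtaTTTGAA
Ckap2: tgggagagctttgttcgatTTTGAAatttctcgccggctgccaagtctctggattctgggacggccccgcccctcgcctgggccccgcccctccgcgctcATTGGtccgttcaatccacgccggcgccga
Nusap1: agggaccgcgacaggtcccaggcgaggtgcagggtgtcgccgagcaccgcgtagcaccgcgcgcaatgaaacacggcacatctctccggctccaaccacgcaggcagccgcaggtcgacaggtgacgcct
Kif18a: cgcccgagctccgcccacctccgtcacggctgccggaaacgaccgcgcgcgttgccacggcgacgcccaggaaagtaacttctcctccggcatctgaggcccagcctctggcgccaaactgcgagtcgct
Cdc20, the activator of the anaphase-promoting complex, holds a TTTGAA just before its start and a CCAAT on each side of it. In these stretches Plk1, Ccnb1 and Cenpa have the TTTAAA form together with CCAAT boxes, and Plk1 and Cenpa each have a TTTGAA further on, after the start. Cdk1, Ube2c, Top2a and Ccnb2 have TTTGAA on one of the strands together with CCAAT.

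After release from the thymidine block, newly made RNA of most members rose within the first hour and stayed high to 5 h in both arms. In ethanol-treated cells the 47 members together had 3325 and 3477 CPM in the 2 libraries at 0 h, 4872 and 5004 at 1 h and 6507 and 6657 at 5 h. In 4HT-treated cells they had 3151 and 3380 CPM at 0 h, 4955 and 5613 at 1 h and 6706 and 7361 at 5 h. Neither arm's libraries overlapped between 0 h and the later hours. For scale, the same genes summed to between 5195 and 5774 CPM in the 16 libraries of cycling FOXD3-iKO cells, whose longer pulse allows no comparison.

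**Figure D1:**
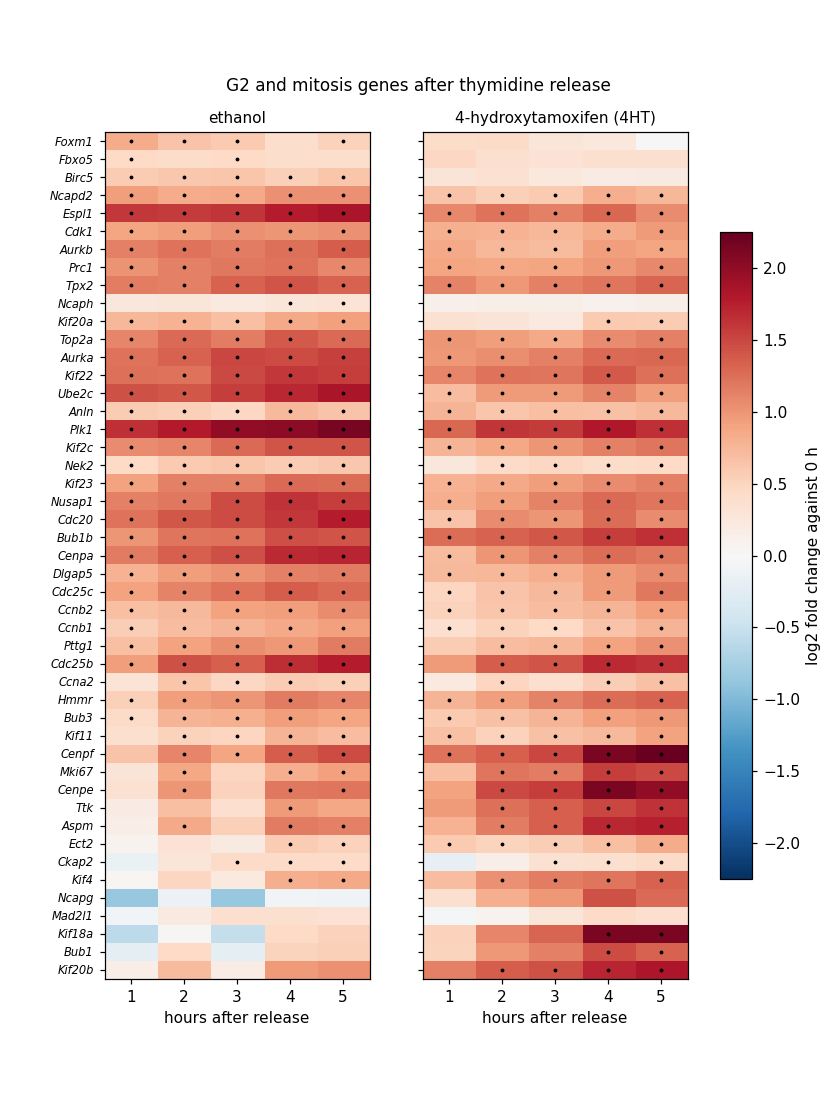
Log2 fold change of each of the 47 members against 0 h at 1 to 5 h after release, for ethanol (left) and 4HT (right), with black dots where edgeR called the change (adjusted p under 0.05). Genes are ordered by the hour at which the midpoint of their rise was reached with ethanol, and the 5 lowest rows had no call there. All called squares are higher than 0 h, and most members have a dot from 1 h or 2 h onward.

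Here a gene counts as called when edgeR's quasi-likelihood test gave it an adjusted p under 0.05 (Benjamini-Hochberg, over all genes tested). With ethanol, 31 members were called higher than at 0 h at 1 h (10.4% of all 17739 genes were), 36 at 2 h (8.58%), 35 at 3 h (10.3%), 40 at 4 h (8.87%) and 40 at 5 h (11.8%). With 4HT the counts were 27 at 1 h (3.19% of all genes), 37 at 2 h (4.24%), 37 at 3 h (4.39%), 41 at 4 h (6.13%) and 41 at 5 h (8.69%). No member was called lower at any hour in either arm, and 37 were called higher at 5 h in both arms. The median log2 change of the 47 members went from 0.67 at 1 h to 1.07 at 5 h with ethanol and from 0.70 to 1.08 with 4HT, while the median over all genes tested lay between -0.08 and 0.02. In each arm 46 of the 47 members had both 5 h libraries above both 0 h libraries. The share of all genes that separated in this way was not computed. The hourly contrasts of an arm share its 0 h libraries: without the first 4HT library at 0 h, 21 members were called with 4HT at 2 h and 24 at 3 h. With total counts alone as scaling, 13 were called with 4HT at 1 h and 23 at 2 h, and in a fit of the compared groups alone none at 3 h and 18 at 4 h with ethanol. The share of Gm26917 and Gm42418 moved with the hours. With ethanol it was 4.92% and 3.41% at 0 h, 14.7% and 22.8% at 1 h and 24.4% and 3.83% at 5 h, and with 4HT it was 19.7% and 15.6% at 0 h, 17.98% and 16.8% at 1 h and 7.20% and 5.48% at 5 h. With the share as a covariate, an alternative added after seeing the data, 29 members were called higher at 1 h and 42 at 5 h with ethanol, and 33 and 39 with 4HT.

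Over all hours of release together, 38 members changed with ethanol (19.4% of all genes were called) and 39 with 4HT (15.4%). With ethanol these were all 7 of the CDK1 engine, all 4 mitotic kinases, all 6 spindle factors, all 3 centromere genes, all 4 of cytokinesis, 4 of 5 around the anaphase-promoting complex, 5 of 8 kinesins, 3 of 5 of chromosome structure and 2 of 5 checkpoint genes. The member with the smallest p in each role group is described next.

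Plk1, the polo-like kinase that starts mitosis, rose most with ethanol. Its libraries had 17.0 and 17.1 CPM at 0 h, 52.6 and 53.9 at 1 h, 58.3 and 58.5 at 2 h, 74.5 and 60.6 at 3 h, 74.2 and 63.6 at 4 h and 84.6 and 65.6 at 5 h. All later libraries lay above both at 0 h, and most of the rise was complete at 1 h. The log2 change was 1.64 ± 0.13 (SE) at 1 h and 2.14 ± 0.14 at 5 h (edgeR adjusted p = 1.06e-07 at 5 h). With 4HT, Plk1 went from 20.4 and 17.5 CPM at 0 h to 44.2 and 49.4 at 1 h and 59.9 and 59.8 at 5 h, a log2 change of 1.65 ± 0.13 at 5 h.

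Cdc20 led the genes around the anaphase-promoting complex. It had 19.5 and 17.7 CPM at 0 h, 40.8 and 46.6 at 1 h and 69.4 and 57.0 at 5 h with ethanol, a log2 change of 1.76 ± 0.12 at 5 h (edgeR adjusted p = 1.71e-07). Ube2c, the ubiquitin-conjugating enzyme of the complex, and Espl1, which encodes separase, each had a log2 change of 1.84 at 5 h in this arm. Pttg1, which encodes securin, the inhibitor of separase, followed with 1.17. Fbxo5, an inhibitor of the complex, was called only at 1 h and 3 h with ethanol and had log2 changes of 0.44 at 1 h and 0.40 at 5 h.

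In the CDK1 engine, Cdc25c had the smallest p over release. This phosphatase gene had 10.2 and 13.4 CPM at 0 h, 23.9 and 20.8 at 1 h and 27.9 and 29.8 at 5 h with ethanol, and 16.1 and 19.2, 24.9 and 24.3, and 39.4 and 40.1 at the same hours with 4HT. Its sister gene Cdc25b had a log2 change of 1.77 at 5 h with ethanol and 1.62 with 4HT, the largest in the group in each arm, at a mean of 6.01 CPM. Cdk1, the mitotic kinase itself, had 1.03 and 0.96.

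Of the mitotic cyclins, Ccnb1 and Ccna2 rose less than Cdk1 by 5 h in both arms. Ccnb2, cyclin B2, had log2 changes of 1.07 with ethanol and 0.92 with 4HT at 5 h. Ccnb1, cyclin B1, had 118 and 121 CPM at 0 h, 176 and 172 at 1 h, 198 and 186 at 2 h, 204 and 199 at 3 h, 232 and 198 at 4 h and 215 and 237 at 5 h with ethanol. With 4HT it had 119 and 123, 149 and 166, 173 and 176, 170 and 162, 186 and 193, and 207 and 205 at the same hours. In each arm every later library lay above both at 0 h, and the highest mean was at 5 h, with a log2 change of 0.92 with ethanol and 0.77 with 4HT. With 4HT both libraries at 3 h lay below both at 2 h. Ccna2, cyclin A2, had 63.8 and 74.6 CPM at 0 h, 87.4 and 83.5 at 1 h, 106 and 107 at 2 h, 85.6 and 106 at 3 h, 108 and 96.3 at 4 h and 88.7 and 112 at 5 h with ethanol. Its level was at its highest mean at 2 h and was then flat within the spread of the libraries, and with 4HT it went from 62.6 and 65.0 CPM at 0 h to 89.9 and 88.9 at 2 h and 99.7 and 101 at 5 h. Per kilobase of counted interval, Ccnb1 had the highest mean level of all 47 members over the 24 synchronized libraries, 22.5 CPM per kilobase, and Cdc25b the lowest, 0.52.

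**Figure D2:**
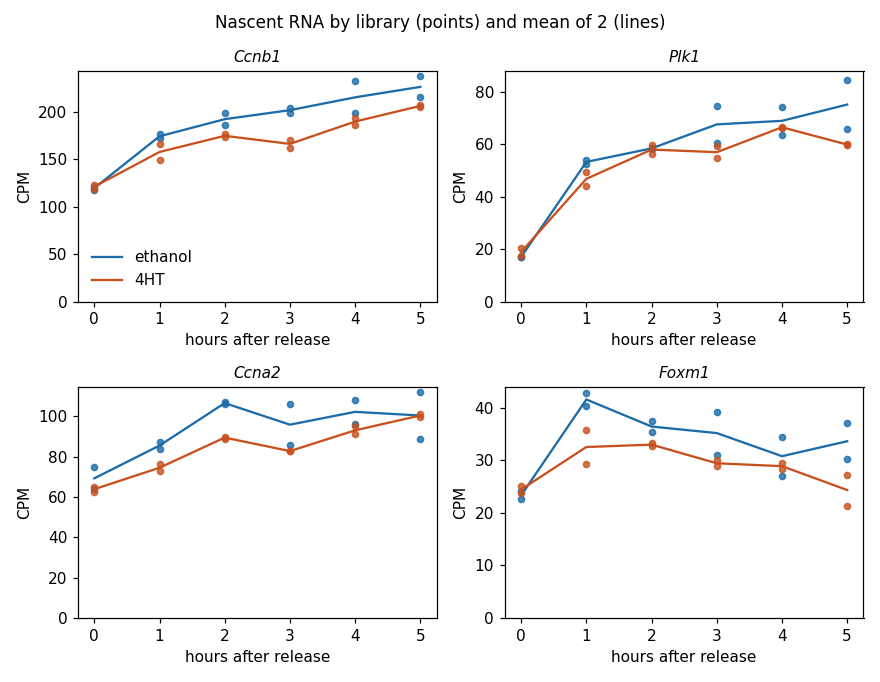
CPM of Ccnb1, Plk1, Ccna2 and Foxm1 (vertical axes, each from 0) against hours after release, with a point for each library and a line through the mean of 2, ethanol in blue and 4HT in orange. Ccnb1 and Plk1 climb to 5 h with ethanol, whereas Foxm1 with ethanol has its highest mean at 1 h and is lower afterwards.

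Foxm1, the forkhead factor that activates many genes of this set, had a different course. With ethanol it had 24.1 and 22.6 CPM at 0 h, 40.3 and 42.9 at 1 h, 37.5 and 35.4 at 2 h, 39.3 and 31.1 at 3 h, 34.5 and 27.1 at 4 h and 37.1 and 30.2 at 5 h. It was called higher at 1, 2, 3 and 5 h, with log2 changes of 0.83 at 1 h and 0.53 at 5 h. With 4HT it had 25.1 and 23.8 CPM at 0 h, 35.8 and 29.3 at 1 h and 27.3 and 21.4 at 5 h, and it was called at no hour.

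The remaining role groups were led by genes with log2 changes from 1.08 (Prc1) to 1.72 (Cenpa) at 5 h with ethanol. Bub1b, which encodes the checkpoint kinase BUBR1, had 74.4 and 72.0 CPM at 0 h and 197 and 193 at 5 h with ethanol, and 67.8 and 70.8 and then 205 and 230 with 4HT, where it had the smallest p of all members. Its log2 change at 5 h was 1.41 ± 0.11 with ethanol and 1.65 ± 0.11 with 4HT (edgeR adjusted p = 8.38e-08 for 4HT). Cenpa, the histone H3 variant of centromeres, went from 37.6 and 42.9 CPM to 141 and 125 with ethanol, a log2 change of 1.72 ± 0.11. Kif23, a kinesin of the central spindle, went from 54.3 and 54.0 to 127 and 130 CPM, and Top2a, the topoisomerase that untangles sister chromatids, from 126 and 141 to 311 and 338. Nusap1, which bundles spindle microtubules, went from 46.7 and 49.0 to 151 and 130 CPM, and Prc1, which bundles microtubules of the midzone, from 71.2 and 62.5 to 137 and 146. In none of these 6 did the 0 h and 5 h libraries overlap in either arm.

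The genes were ordered by the hour at which each was first called higher and by the hour at which its mean log2 level (CPM with 0.5 added) had covered the first 50% of its rise from 0 h to its highest hour, here called the midpoint hour. With ethanol, 31 members were first called at 1 h, 6 at 2 h (Ccna2, Kif11, Cenpf, Mki67, Cenpe and Aspm), 1 at 3 h (Ckap2) and 4 at 4 h (Ncaph, Ttk, Ect2 and Kif4), while Bub1, Mad2l1, Kif18a, Kif20b and Ncapg were called at no hour. With 4HT, 27 were first called at 1 h, 10 at 2 h, 1 at 3 h (Ckap2) and 3 at 4 h (Kif20a, Kif18a and Bub1), and Foxm1, Fbxo5, Birc5, Ncaph, Mad2l1 and Ncapg at no hour. The median midpoint hour was 0.717 h with ethanol (42 members) and 0.823 h with 4HT (41 members). Since cells were collected hourly, midpoints under 1 h are straight-line interpolations between 0 h and 1 h, and 30 and 32 members had such a midpoint. Such a value cannot fall below 0.50 h, which any gene that is highest at 1 h receives. Under 1 h it shows only how much of the rise was left after 1 h, not when in that hour the rise began. The same measure in each replicate alone differed by a median of 0.126 h with ethanol and 0.134 h with 4HT, so the order among the early genes lies within the spread between libraries.

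By role, the lowest median midpoints with ethanol were those of chromosome structure (0.622 h), cytokinesis (0.627 h), the mitotic kinases (0.638 h) and the anaphase-promoting complex (0.641 h). The highest were those of the checkpoint (1.13 h) and the centromere (1.20 h). The lowest medians lie closer together than the median difference between replicates, 0.126 h. Each median covers only the members called higher in that arm, so the sets differ between the arms. For the checkpoint with ethanol these were Bub1b (0.725 h), Bub3 (1.13 h) and Ttk (1.58 h). With 4HT the medians of the 9 groups ran from 0.611 h (cytokinesis) to 0.97 h (the CDK1 engine). The lowest midpoints of single genes with ethanol were those of Foxm1 (0.50 h, the lowest value possible), Fbxo5 (0.51 h) and Birc5, a subunit of the chromosomal passenger complex (0.547 h). Next were Ncapd2, a condensin subunit (0.554 h), and Espl1 (0.571 h). Fbxo5 had 0.634 h and 0.713 h in the single replicates, both above the value from the means. The latest were Aspm, a spindle pole protein, at 1.62 h, Ect2, the exchange factor that starts the cleavage furrow, at 1.83 h, Ckap2, a spindle protein, at 1.87 h and Kif4, a chromosome-bound kinesin, at 1.88 h. Kif4 was the least certain of these, with 3.97 h in the first replicate and 1.92 h in the second. With 4HT the midpoints were 1.25 h for Aspm, 0.708 h for Ect2, 2.35 h for Ckap2 and 0.957 h for Kif4. Spearman's rho between midpoint hour and interval length was 0.357 with ethanol and -0.0787 with 4HT. Over all genes, rho between length and the log2 change at 1 h was -0.42 with ethanol and 0.09 with 4HT. The part of gene length in this order was not tested. Between the replicates, Spearman's rho of the midpoint hours, taken over genes that are not independent of each other, was 0.668 with ethanol and 0.778 with 4HT.

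**Figure D3:**
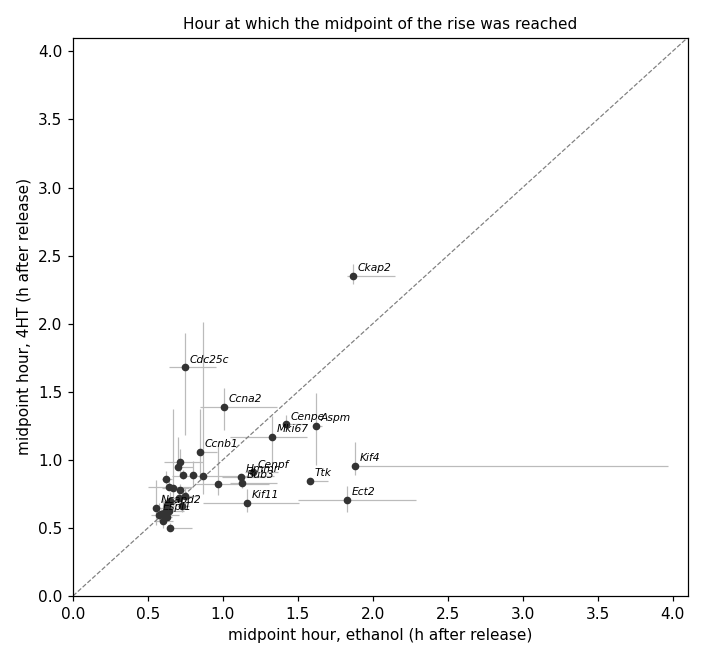
Midpoint hour of the rise with 4HT (vertical axis, h) against that with ethanol (horizontal axis, h) for the 38 members that have both, where bars span the values in the single replicates and the dashed line marks equal hours. Most genes cluster under 1 h in both arms, and Ckap2 is late in both, at 1.87 h and 2.35 h.

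The order was shared in part between the arms, which have no library in common. Over the 38 members with a midpoint in both, rho between the arms was 0.707, 20 were later and 18 earlier with 4HT, and the median difference was 0.00726 h. The first called hour was the same for 29 of the 38, later with 4HT for 4 and earlier for 5. Ckap2 was first called at 3 h in each arm. Its libraries had 175 and 167 CPM at 0 h, 154 and 154 at 1 h and 213 and 248 at 3 h with ethanol, and 165 and 173, 143 and 154, and 216 and 212 with 4HT. Both libraries at 1 h lay below both at 0 h in each arm, before the rise. The letters TTTGAA were in 19 of the 25 promoters of members first called at 1 h with ethanol, in 8 of 10 of those called at 2 to 4 h, and in 2 of 5 of those never called.

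Of the 5 members never called with ethanol, Kif18a, Ncapg, Bub1 and Kif20b had widely spread libraries. Kif18a, a kinesin that damps chromosome movements, had 101 and 135 CPM at 0 h, 57.7 and 99.3 at 1 h, 108 and 133 at 2 h, 28.2 and 135 at 3 h, 88.8 and 235 at 4 h and 174 and 163 at 5 h. Ncapg, a condensin subunit, had 14.7 and 65.4 CPM at 3 h and Bub1, a checkpoint kinase, 25.1 and 93.7. Kif20b, another kinesin, had 82.5 and 209 CPM at 3 h and a log2 change of 1.03 at 5 h. In each of them the first library at 3 h was the lowest of all 12, and in that library Gm26917 and Gm42418 took 25.4% of counts against 4.77% in the second. With 4HT, Kif18a had 35.7 and 67.3 CPM at 0 h and 165 and 282 at 5 h, and the share of those genes was lower in both libraries at 5 h than in both at 0 h. Without the first ethanol library at 3 h, 42 were called over release in each arm.

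Other genes of the cell cycle moved less uniformly. At 5 h, 11.8% of all genes were called higher and 9.56% lower with ethanol, and 8.69% higher and 11.5% lower with 4HT. Of 46 further G2 and mitosis genes tested, 27 were called higher at 5 h and none lower with ethanol, and 27 higher and 2 lower with 4HT, with median log2 changes of 0.56 and 0.67. Ckap2l, a spindle protein, had the smallest p among them (1.65 ± 0.10 and 1.35 ± 0.10). Of 16 subunits and activators of the anaphase-promoting complex, 5 were higher and 1 lower with ethanol, led by the activator Fzr1 (1.64 ± 0.19), and 4 and 4 with 4HT. Of 22 genes of MuvB, MYB and E2F regulators, 4 were higher and 1 lower with ethanol and 3 and 2 with 4HT, and E2f6 had the smallest p in both (-0.67 and -0.74). Of 31 genes of G1/S and DNA replication, 7 were higher and 1 lower with ethanol and 0 and 11 with 4HT. Among 24 p53 targets, 1 was higher and 2 lower with ethanol and 0 and 3 with 4HT, and the higher one was Cdkn1a, the CDK inhibitor p21 (log2 change 0.58 ± 0.12 with ethanol, -0.01 ± 0.12 with 4HT).

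Between the arms few members differed at any single hour, and differences over all hours went in both directions. At a single hour, 4HT differed from ethanol in 0 members at 0 h (0.445% of all genes were called), 1 at 1 h (2.4%), 0 at 2 h (0.789%), 1 at 3 h (3.49%), 0 at 4 h (0.519%) and 1 at 5 h (2.09%). The called gene was Anln, which encodes the cleavage furrow scaffold anillin, at 1 h and 3 h, and Cdc25c at 5 h, each higher with 4HT (log2 changes of 0.51, 0.53 and 0.46). At an unadjusted p under 0.05 there were 15, 5, 6, 9, 1 and 6 members at 0 to 5 h. Of all 17739 genes, 3146, 3652, 3107, 4541, 2005 and 3500 had such a p at these hours. DESeq2 called 2, 3, 1, 5, 0 and 2 members. The single calls were fragile: when each of the 24 libraries was left out in turn, no member was called in 15 of the 24 fits at 1 h, 6 at 3 h and 18 at 5 h. Without the second ethanol library at 3 h, 14 members were called at 3 h, and without the first, or without the second, ethanol library at 3 h, 4 were called at 0 h.

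Over all 6 hours together, with 12 libraries an arm, 18 members differed. Of these 9 were higher with 4HT (18.6% of all genes were called higher) and 9 lower (18.4%), which for 47 genes is close to the background in each direction. Anln had 156 to 288 CPM with a median of 231 in ethanol libraries and 196 to 371 with a median of 308 in 4HT libraries, and its mean was higher with 4HT at all 6 hours. The log2 difference was 0.40 ± 0.05 (edgeR adjusted p = 3.74e-06). Also higher were Kif4 (0.40), Cdc25c (0.24), Espl1 (0.24), Ect2 (0.22), Kif11 (0.16), Tpx2 (0.15), Ncapd2 (0.14) and Kif23 (0.13). Lower were Mad2l1 (-0.26), Cdk1 (-0.21), Foxm1 (-0.21), Bub3 (-0.16), Fbxo5 (-0.16), Ccna2 (-0.15), Ccnb1 (-0.14), Aurka (-0.13) and Nek2 (-0.11). Cdk1 ranged from 166 to 399 CPM with ethanol and from 166 to 333 with 4HT, ranges that include the rise after release. Its mean was lower with 4HT at all 6 hours (edgeR adjusted p = 0.000975 over all hours). The arms overlapped at 0 h, and at 1 to 5 h both 4HT libraries lay below both ethanol libraries.

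**Figure D4:**
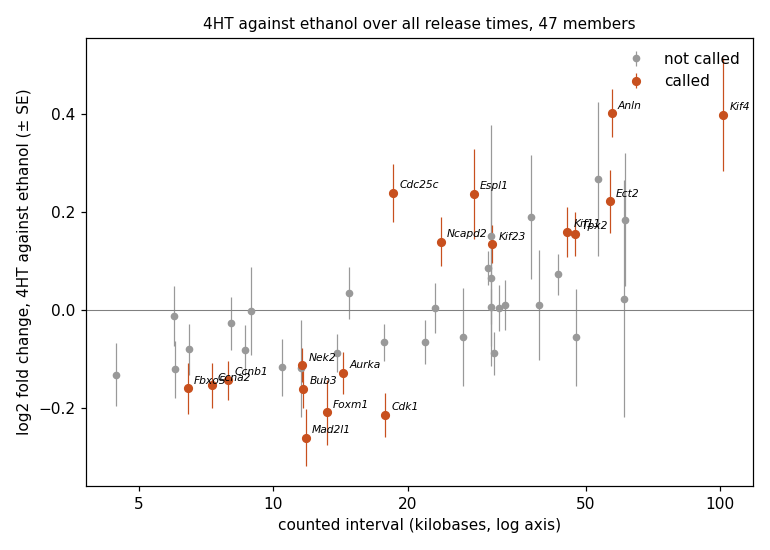
Log2 fold change of 4HT against ethanol over all release times (vertical axis, points with SE bars) against the length of the counted interval in kilobases (log axis) for the 47 members, called members in orange. The 9 called higher all have intervals of 18537 bases or more and the 9 called lower 17793 bases or less.

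The direction followed gene length. All 9 members called higher have counted intervals of 18537 to 101478 bases, and all 9 called lower have 6441 to 17793 bases. Across the 47 members Spearman's rho between length and the log2 difference was 0.737, and across all 17739 genes it was 0.465. With the trend on length removed, an alternative added after seeing the data, 7 of the members were called, 5 higher and 2 lower: Anln, Cdc25c, Kif4, Ncapd2 and Kif23, and Cdk1 and Mad2l1. The split also moved with the scaling: with total counts alone 1 was higher and 28 lower, and with total counts outside Gm26917 and Gm42418 2 were higher and 23 lower, while the median of all genes moved by -0.21 and -0.16. Kif23, Ncapd2 and Tpx2 changed sign under both of these scalings and Kif11 under the first. The share of Gm26917 and Gm42418 ran from 3.41% to 25.4% with a median of 9.49% in the 12 ethanol libraries and from 5.48% to 21.1% with a median of 15.9% in the 12 with 4HT. With that share as a covariate 24 members were called, 10 higher and 14 lower.

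Whether 4HT changed the course of the rise was tested by the interaction of arm and hour. No member was called (edgeR, 0% of all 17739 genes), 4 had an unadjusted p under 0.05 (882 of all genes had), and DESeq2 called 0. For the change from 0 h to 5 h alone, again no member was called (0% of all genes). Of the members 11 had an unadjusted p under 0.05 (3143 of all genes had), and DESeq2 called 0. Without the filter on low counts edgeR called 6 members for the interaction and 8, 7 of them higher with 4HT and 1 lower, for the change from 0 h to 5 h. The smallest p belonged to Cdc20, whose rise of 1.76 with ethanol and 1.06 with 4HT differed by -0.70 ± 0.17 (edgeR adjusted p = 0.17), followed by Ube2c with a difference of -0.90 ± 0.26. For Ube2c the 0 h libraries had 25.5 and 26.6 CPM with ethanol and 38.2 and 38.1 with 4HT, and the 5 h libraries 109 and 77.7, and 75.1 and 70.7.

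In cycling FOXD3-iKO cells few members differed between 4HT and ethanol. No member was called at 8 h (0.0107% of all 18707 genes were), at 14 h (0.016%) or at 24 h (0.481%). At an unadjusted p under 0.05 there were 0, 0 and 2 members, against 528, 750 and 1579 of all genes. DESeq2 called 0, 0 and 1 members. The median log2 differences were 0.02, 0.01 and 0.03. The smallest p at 8 h was that of Cdc25c (28.3 and 29.4 CPM with ethanol, 30.6 and 31 with 4HT) and at 14 h that of Mad2l1 (63.3 and 54.8, and 56.8 and 51.6).

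At 32 h, 2 members were called, both higher with 4HT (9.47% of all genes were called, 4.88% higher and 4.59% lower). For 47 genes this is close to the background of genes called higher. Both encode spindle proteins, and the other spindle factors were not called. Ckap2 had 118 and 112 CPM with ethanol and 171 and 173 with 4HT, a log2 difference of 0.59 ± 0.08 (edgeR adjusted p = 0.000688). At 24 h it had had 115 and 111, and 135 and 138 CPM, a difference of 0.27 that was not called, and at 8 h 119 and 124, and 118 and 122. Hmmr, a microtubule-binding protein of spindle poles, had 151 and 135 CPM with ethanol and 180 and 181 with 4HT at 32 h (0.33 ± 0.09, edgeR adjusted p = 0.028). The groups did not overlap for either gene. The change in response from 24 h to 32 h was called for no member (edgeR, 0% of all genes), and DESeq2 called 0. Of the members 1 had an unadjusted p under 0.05 (Ckap2, 0.31 ± 0.12), as had 1395 of all genes.

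The count at 32 h depended on single libraries. It was 1, Ckap2, without either 4HT library or without the second ethanol library, and 10 (2 higher, 8 lower) without the first ethanol library, in which Gm26917 and Gm42418 took 14.3% of counts against 28% in the second. The 4HT libraries had 13.9% and 12.5%, both below both ethanol libraries. With that share as a covariate, 7 were called, 2 higher and 5 lower, and in a fit of the compared groups alone none was. Among other lists at 32 h, where 4.88% of all genes were called higher and 4.59% lower, 14 of 24 p53 targets were higher, led by Mdm2 (1.09 ± 0.09), and 5 of 31 genes of G1/S and DNA replication were lower. Cdkn1a had a log2 difference of -0.03 and was not called. Of 11 primitive endoderm markers 5 were higher, and 2 of 15 stem cell markers were lower.

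**Figure D5:**
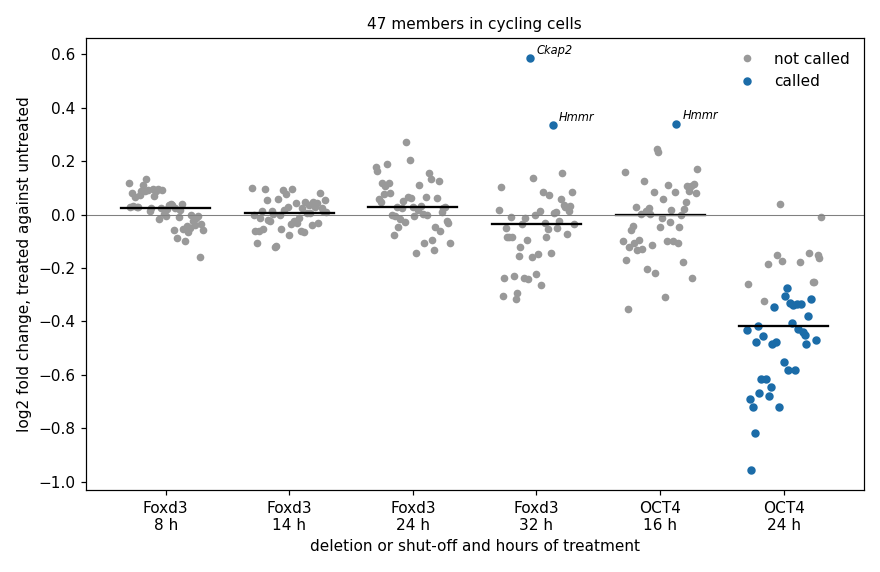
Log2 fold change of the 47 members (points, ordered by interval length within each column) for 4HT against ethanol in FOXD3-iKO cells at 8, 14, 24 and 32 h and for doxycycline against water in OCT4-tetOff cells at 16 and 24 h, with a bar at the median and called members in blue. The points scatter around 0 except after 24 h of doxycycline, where the median is -0.42 and 34 members were called lower.

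After loss of OCT4 most members were lower at 24 h of doxycycline, while the number called at 16 h depended on the fit. Summed over the 47 members, water libraries had 5012 and 5050 CPM at 16 h and 5025 and 4839 at 24 h, and doxycycline libraries 4991 and 5067 at 16 h and 3831 and 3710 at 24 h. The groups overlapped at 16 h and were apart at 24 h. At 16 h, 1 member was called (16.9% of all 17713 genes were): Hmmr, with 140 and 147 CPM in water and 178 and 185 in doxycycline (0.34 ± 0.10, edgeR adjusted p = 0.038). That call was lost without any one of the 4 libraries at 16 h. In a fit of the compared groups alone 10 members were called, 4 higher and 6 lower, and with the trend on length removed 8, 3 higher and 5 lower. The share of Gm26917 and Gm42418 at 16 h was 37.9% and 43.05% in water and 36.9% and 30.3% in doxycycline, and with it as a covariate none was called.

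At 24 h, 34 members were lower and 0 higher (18.7% of all genes were called lower), with a median log2 difference of -0.42 against -0.01 over all genes. Of the 47, 44 had both doxycycline libraries below both water libraries, a count not made over all genes. Kif2c, a kinesin that depolymerizes microtubules, had the smallest p, with 74.4 and 71.3 CPM in water and 50.1 and 49.3 in doxycycline (-0.55 ± 0.08, edgeR adjusted p = 0.000933). Fbxo5 fell most, from 140 and 111 to 74.7 and 54.7 CPM (-0.95 ± 0.16). Cdk1 went from 238 and 211 to 144 and 129 CPM (-0.72 ± 0.11) and Birc5 from 79.9 and 71.1 to 52.4 and 39.3 (-0.72 ± 0.14). The other genes among the 8 smallest p-values were Nek2, a centrosome kinase (-0.62), Bub1 (-0.58), Aurkb, the kinase of the passenger complex (-0.69), and Espl1 (-0.58).

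By role, all 4 mitotic kinases and all 5 genes of chromosome structure fell at 24 h, as did 4 of 5 checkpoint genes, 4 of 5 around the anaphase-promoting complex, 5 of 7 of the CDK1 engine, 5 of 8 kinesins, 2 of 3 centromere genes, 3 of 6 spindle factors and 2 of 4 of cytokinesis. Cdc25c (0.04) and Kif4 (-0.01) were nearest to 0 among the 13 not called. Other cell cycle lists were also lower: 29 of 31 genes of G1/S and DNA replication (median -0.66), 30 of 46 further G2 and mitosis genes (median -0.38), led by Cep55 (-1.40), and 9 of 22 MuvB, MYB and E2F regulators, led by Mybl2, which encodes B-MYB (-2.02 ± 0.11, and -1.51 ± 0.11 at 16 h). Of the 16 genes of the anaphase-promoting complex, 3 were higher (18.1% of all genes were) and 2 lower. Cdkn1a was higher at 16 h (1.04 ± 0.12) and at 24 h (1.33 ± 0.12).

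Markers of cell identity moved at the same time. At 24 h, 14 of 15 stem cell markers were lower and 1 higher (median -1.57), where 18.7% of all genes were called lower and 18.1% higher. Among the 14 is Pou5f1 (-1.83), which doxycycline shuts off by design. Of the other markers, 8 of 11 of primitive endoderm (median 1.49) and 4 of 9 of trophectoderm (median 0.94) were higher. Over both times the 13 primitive endoderm markers summed to 223 to 276 CPM in water and 348 to 468 in doxycycline libraries, and the 10 trophectoderm markers to 57.4 to 77.4 and 125 to 156. The 12 fibroblast feeder markers summed to 10.1 to 12 CPM in water and 16.0 to 22.5 in doxycycline. The part of a changed mix of cells in the fall of the 47 members was not tested. The share of Gm26917 and Gm42418 was 27.3% and 25.97% in water and 21.0% and 18.1% in doxycycline at 24 h. With that share as a covariate 2 members were called lower (median -0.34), in a fit of the compared groups alone 16, and with total counts alone 20. With the trend on length removed 42 were, and the shares of all genes called in these alternatives are not given here.

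The difference between the responses at 24 h and 16 h was negative for all 47 members, with a median of -0.36, but none was called (edgeR, 0% of all genes). Of the members 30 had an unadjusted p under 0.05 (1952 of all 17713 genes had), and DESeq2 called 0. Kif2c had the smallest p (-0.50 ± 0.12, edgeR adjusted p = 0.20). With the trend on length removed, an alternative added after seeing the data, 26 were called lower. The share of all genes called in that fit is not given here.

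The responses to loss of FOXD3 and of OCT4 at 24 h were set against each other in one fit of the 8 libraries of that time, each response taken within its own line. Foxd3 itself fell in both lines at this time: it went from 8.45 and 9.99 CPM in ethanol to 3.31 and 3.37 in 4HT in the FOXD3 line (log2 change -1.46 ± 0.24) and from 21.2 and 20.2 CPM in water to 2.85 and 1.88 in doxycycline in the OCT4 line (-3.12 ± 0.20). For 13 members the FOXD3 response was higher than the OCT4 response (9.08% of all 18437 genes were called higher), and none was called lower. The median difference was 0.44 on the log2 scale and 31 members had an unadjusted p under 0.05, as had 5855 of all 18437 genes. Cdk1 had the smallest p, with a difference of 0.79 ± 0.17 (edgeR adjusted p = 0.012). The count was 6 without either the first 4HT or the second doxycycline library, 3 without the first water library, 1 without the second ethanol library, 0 without the second 4HT or the first ethanol library, and 20 without the first doxycycline library. With the share of Gm26917 and Gm42418 as a covariate it was 1, and with the trend on length removed 37. How many of all genes these alternatives called is not given here.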

How the data were processed

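Newly made RNA of 48 libraries was analysed from count tables. Per the submitters' processing notes, the authors aligned reads to mm10 with STAR and counted them with featureCounts. The authors deposited raw whole-number counts for each gene. For tool versions and the strand option, the sources used here give nothing, so overlapping genes on opposite strands are uncertain. In all 54752 genes the length given equals end less start plus 1, so introns are included. Libraries were grouped by their titles, gene IDs were matched to symbols without version (54723 matched), and all sample columns were mapped.

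Each table was fitted whole with edgeR 4.0.16 in R 4.3.3 (TMM factors, quasi-likelihood test, 1 mean per group, filterByExpr with a minimum count of 10), and p-values were Benjamini-Hochberg adjusted over all genes tested. The effect of 4HT over all release times had the hour as a covariate. CPM are after TMM scaling, and an SE is the log2 fold change over the square root of F. The scripts were tested on simulated counts. A floor of 3 counts is 0.0987 to 0.377 CPM and reflects counting error alone, as reads may be copies of one molecule.

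The members and all lists were chosen with earlier results of these data known. Named are every called member where at most 12 were called, otherwise the 8 with the smallest p in each direction, the smallest p of each role group over release with ethanol and of each other list, and Ccnb1, Plk1, Ccna2, Foxm1, Cdkn1a, Foxd3 and Pou5f1. Further members named for their order, their spread or their role were chosen after their values were seen. Alternatives were DESeq2 1.42.0, other scalings, no filter, fewer groups, a replicate block, leaving out each library, and, added after seeing the data, removal of a trend on length and the ribosomal share as a covariate. Replicate numbers were not used as pairs, since not every pair of groups had same-numbered libraries that deviated together.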

Additional observations from a re-analysis of the deposited data

Results flagged for a closer look

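For 13 members the response to 24 h of 4HT in FOXD3-iKO cells differed from the response to 24 h of doxycycline in OCT4-tetOff cells in a test of the difference itself (edgeR, adjusted p under 0.05), always with the FOXD3 response higher on the log2 scale. The differences were 1.01 for Fbxo5, the inhibitor of the anaphase-promoting complex, 0.90 for Ccna2 (cyclin A2), 0.84 for Birc5, 0.79 for Cdk1, 0.79 for Kif20a, a kinesin of cytokinesis, 0.75 for Aurkb and 0.70 for Ube2c. Smaller ones were 0.63 for Foxm1, 0.61 for Nek2, 0.61 for Cenpa, 0.60 for Espl1, 0.59 for Kif2c and 0.51 for Ccnb2 (cyclin B2). In the FOXD3 line none of them was called at 24 h. The lines differ, Foxd3 itself fell in both, and the share of ribosomal reads moved with doxycycline. With that share as a covariate 1 member was called. Of all 18437 genes 9.08% were called higher, and leaving out single libraries gave 0 to 20 members. The difference also went with gene length: Spearman's rho was -0.63 across the 47 members and -0.30 across all genes. All 13 called members have counted intervals of 6018 to 28092 bases.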

How the results depend on the processing

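Of 150 alternatives to the 18 results that answer a comparison, run with all libraries, 128 stayed within 1.5 times the count or 1 SD of the value. With the trend on length removed, 7 in place of 18 members differed between the arms over all release times, 37 in place of 13 between FOXD3 and OCT4 loss, 26 in place of 0 between 24 h and 16 h of doxycycline, and 8 in place of 1 at 16 h of doxycycline. Without the filter on low counts the arms differed in 9 members, their interaction with the hour in 6, their change from 0 h to 5 h in 8, and the OCT4 responses at 24 h and 16 h in 4. With the ribosomal share as a covariate, counts were 1 at 24 h and 7 at 32 h of 4HT, 1 between FOXD3 and OCT4 loss, and 0 at 16 h and 2 at 24 h of doxycycline. A fit of the compared groups alone gave 0 at 32 h of 4HT, 10 at 16 h and 16 at 24 h of doxycycline. DESeq2 gave 1 at 24 h of 4HT. Total counts alone gave 29 between the arms, 2 at 16 h and 20 at 24 h of doxycycline, and total counts outside Gm26917 and Gm42418 gave 0 at 16 h of doxycycline. The shares of all genes called in these alternatives are not given here, and the cause was not tested.

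Over all release times the arm difference changed sign with total counts alone for Kif11 (-0.0494), Kif23 (-0.0741), Ncapd2 (-0.062) and Tpx2 (-0.0539), and with total counts outside the ribosomal genes for Kif23 (-0.0292), Ncapd2 (-0.0244) and Tpx2 (-0.00914). Leaving out single libraries gave 31 to 45 members over release with ethanol and 29 to 43 with 4HT, 13 to 21 between the arms, 1 to 10 at 32 h of 4HT, 0 to 1 for 32 h against 24 h, 0 to 20 between FOXD3 and OCT4 loss, 0 to 2 at 16 h and 24 to 30 at 24 h of doxycycline, and 0 to 1 for 24 h against 16 h. The median midpoint hour with ethanol was 0.728 h and 0.758 h in the single replicates. Of the alternatives to 51 results on single members, 245 lost the call and 7 reversed.

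Replicate numbers were not taken to pair the libraries, because deviations of same-numbered libraries did not correlate above 0.1 in every pair of groups of any table: they did in 4 of 28 in cycling FOXD3-iKO cells, 2 of 6 in OCT4-tetOff cells and 43 of 66 in synchronized cells, there in 11 of 15 within ethanol (median 0.247) and 8 of 15 within 4HT (median 0.101). With the replicate number as a block, 42 in place of 38 members were called over release with ethanol and 43 in place of 39 with 4HT, 19 between the arms, 2 at 32 h of 4HT, 2 at 16 h and 34 at 24 h of doxycycline, and 13 between FOXD3 and OCT4 loss. Depth was lowest in synchronized cells, where a floor of 3 counts reached 0.377 CPM.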
